A study of Mus musculus with 12 samples.

Results

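Solute carriers (SLC genes) were examined by RNA-seq in 12 libraries made from pre-B acute lymphoblastic leukemia (B-ALL) cells of the mouse, transformed with BCR-ABL1. Members were all genes of the expression table whose symbol begins with Slc, a family number and a letter, except for the glucose transporters Slc2a1 and Slc2a3, which were left out. This rule took 177 of 12151 genes, and used no measured value. Of the 177, 171 encode carriers and 6 only share the prefix: the pseudogene Slc2a4rg-ps, the opposite-strand genes Slc36a1os, Slc36a3os and Slc7a6os, the adaptor gene Slc4a1ap and Slc9a3r1, which encodes a scaffold protein for membrane transporters. Members were sorted into 8 substrate classes by family number, with the 6 other genes apart.

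Pre-B cells were grown from bone marrow of mice aged 6 to 12 weeks and transformed with BCR-ABL1, a kinase fusion that drives B-ALL. All 12 libraries carry Ctnnb1Ex3fl/+, an allele of the β-catenin gene in which loss of exon 3 removes the phosphorylation sites that mark the protein for degradation. The cells received a GFP vector with ERT2 alone or with Cre-ERT2, a recombinase switched on by 4-hydroxytamoxifen (4-OHT), were sorted for GFP, and were taken at day 1 after 4-OHT according to a label line that names ChIP-seq. They had been edited with a non-targeting guide (sgNTC, here WT) or with guides against the Ikaros transcription factors (sgIkzf1 Ikzf3, here KO) and grown from single cells. Each of the 4 combinations had 3 libraries (ERT2 WT and ERT2 KO, Cre-ERT2 WT and Cre-ERT2 KO), so the β-catenin allele was left intact in both ERT2 groups and cut in both Cre-ERT2 groups. No group had Cre-ERT2 without this allele, so active Cre and the loss of exon 3 cannot be told apart. The term β-catenin stabilization below stands for both together. The labels do not say how many clones each group holds, so that WT against KO also compares different single-cell-derived lines, and the edit and the clone cannot be told apart. They also do not say whether replicates were separate cultures, so p-values measure the spread between these libraries, which may be technical.

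SLC proteins carry nutrients, ions, vitamins and metabolites across the plasma membrane and the membranes of mitochondria, lysosomes, the Golgi and the endoplasmic reticulum. Rapidly dividing leukemia cells draw on them for amino acids, export of lactate, one-carbon units, nucleosides and metals. Many work as exchangers or need a partner chain, such as the LAT1 light chain Slc7a5 with the heavy chain Slc3a2, or the lactate transporters Slc16a1 and Slc16a3 with the chaperone Bsg.

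Values were normalized log2 expression levels, so a difference of 1 is a doubling on the deposited scale. How they were transformed is not given in the sources used here, and a transformation that draws low values together would make the differences of weakly expressed members too small. They can be compared between libraries for 1 gene, not between genes, since they carry no correction for length. Of the members, 70 had a mean above that of the median gene (9.08), and the member means ran from 2.38 to 13.93. Replicates lay close together: the median SD of members within a group was between 0.029 and 0.036, and libraries of a group correlated across all genes at r = 0.9994 to 0.9997. Of 13 B lineage markers, all 13 were in the table, 9 lower and 2 higher in ERT2 KO than in ERT2 WT libraries. Their summed unlogged level was 107900 to 108600 against 154600 to 156900. By the limma test used below, 29.3% of all genes were lower and 29.8% higher in this comparison. T cell, erythroid and stromal markers were not among the genes analysed, while 2 of 7 myeloid markers were (Lyz2 and Itgam, summed 349.6 to 370.1 against 194.5 to 196.2, with Lyz2 higher at 0.99 and Itgam lower at -0.15), and 1 of 3 NK markers (5.27 to 5.28 against 5.30 to 5.34). The part of these shifts in the differences given here was not tested. The Ikzf3 transcript was lower in ERT2 KO than in ERT2 WT libraries by 0.65 on the log2 scale, but that of Ikzf1 was higher by 1.01, so the RNA level of Ikzf1 does not mark the edit and KO stands below for the label. In these bulk samples, fewer cells of a type and less RNA per cell cannot be told apart.

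The promoters of 4 members that the results turn on are printed first, since all 4 changed in at least 1 comparison and none shares exon sequence with another gene. These are the lactate transporters Slc16a3 (chr11:120948817-120949116, + strand) and Slc16a1 (chr3:104638414-104638713, + strand), the neutral amino acid transporters Slc43a1 (chr2:84840073-84840372, + strand) and Slc1a4 (chr11:20332664-20332963, - strand). Each runs from 250 bases before to 50 bases after a RefSeq start site of GRCm38.p6, with matches to 4 searched motifs in capitals: CACGTG (the E-box bound by Myc and Max), GGGAA (the Ikaros core), TGATGNAA (an Atf4 composite core) and CTTTGAT (the TCF core). Both strands were searched.
Slc16a3: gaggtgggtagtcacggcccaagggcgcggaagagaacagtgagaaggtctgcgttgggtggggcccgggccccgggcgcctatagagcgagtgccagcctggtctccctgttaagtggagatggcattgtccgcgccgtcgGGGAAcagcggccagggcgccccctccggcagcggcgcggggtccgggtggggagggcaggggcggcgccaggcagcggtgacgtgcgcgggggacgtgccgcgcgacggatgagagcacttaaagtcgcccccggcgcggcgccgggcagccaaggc
Slc16a1: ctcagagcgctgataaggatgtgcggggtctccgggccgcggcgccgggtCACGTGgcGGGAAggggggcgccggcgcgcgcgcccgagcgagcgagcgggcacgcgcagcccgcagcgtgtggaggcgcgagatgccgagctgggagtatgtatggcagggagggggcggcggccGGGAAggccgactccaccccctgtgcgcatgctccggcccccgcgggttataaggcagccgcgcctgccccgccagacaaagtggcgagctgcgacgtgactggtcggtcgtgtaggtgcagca
Slc43a1: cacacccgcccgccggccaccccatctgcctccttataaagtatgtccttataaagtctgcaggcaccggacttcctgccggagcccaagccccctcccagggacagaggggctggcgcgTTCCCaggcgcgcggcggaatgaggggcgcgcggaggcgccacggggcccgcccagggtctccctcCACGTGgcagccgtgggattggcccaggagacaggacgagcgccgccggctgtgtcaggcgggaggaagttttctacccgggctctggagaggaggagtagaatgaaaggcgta
Slc1a4: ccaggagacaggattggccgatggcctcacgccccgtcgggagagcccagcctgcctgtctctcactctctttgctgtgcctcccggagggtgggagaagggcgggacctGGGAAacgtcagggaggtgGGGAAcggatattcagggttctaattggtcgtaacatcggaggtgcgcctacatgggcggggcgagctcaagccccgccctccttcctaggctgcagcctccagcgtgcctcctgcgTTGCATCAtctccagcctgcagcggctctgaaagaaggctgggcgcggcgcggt

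Slc16a1 held CACGTG 200 bases before the start, followed by GGGAA at 192 and again at 74 bases. Slc43a1 held CACGTG 64 bases before the start and GGGAA on the opposite strand at 130. In Slc1a4 the letters GGGAA stood 140 and 121 bases before the start, and TGATGNAA on the opposite strand at 4 bases. Slc16a3 held only GGGAA, at 108 bases. Of 32851 RefSeq promoters of this length, 7.15% held CACGTG, 62.7% GGGAA, 3.97% TGATGNAA and 3.73% CTTTGAT. Among 178 promoters matched by symbol to 134 of the members, the shares were 14%, 66.3%, 2.25% and 4.49%. The 32851 promoters were not limited to genes of the expression table, while the members were, and some members have several promoters. The 2 sets are thus not alike, and their shares were not tested against each other. A match is a description of the letters and not of a bound site.

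The comparison of KO with WT libraries asks how SLC genes differ between cells given guides against Ikzf1 and Ikzf3 and cells given the non-targeting guide. At the 5% level (limma adjusted over all genes), 118 of 177 members (66.7%) differed between ERT2 KO and ERT2 WT libraries, 61 higher and 57 lower, where 59% of all genes did (29.8% higher and 29.3% lower). In Cre-ERT2 libraries the count was also 118, with 60 higher and 58 lower, against 58.9% of all genes (30.4% higher and 28.6% lower). The split depended on scaling. With each library centered on its median it was 48 higher and 72 lower in ERT2 and 45 and 69 in Cre-ERT2 libraries. With quantile normalization it was 52 and 66, and 51 and 68. The calls over all genes shifted as well, so the shift is not particular to members. With centering, 2866 of 7613 called genes were higher in ERT2 and 2983 of 7772 in Cre-ERT2 libraries. With quantile normalization, 3370 of 7276 and 3411 of 7397 were higher. Differences of at least 0.25 were found for 58 members (32.8%) in ERT2 and 54 (30.5%) in Cre-ERT2 libraries, against 21.5% and 21.8% of all genes. In each, 5 members passed 1, but the share of all genes at that size is not given here. The median difference over members was 0.0042 in ERT2 libraries beside 0.0016 over all genes, so members moved in both directions about a center near 0. Groups did not overlap for 130 members in ERT2 libraries (65.5% of all genes did so) and for 121 in Cre-ERT2 libraries (63.6%). The 2 comparisons share no library, but they share 1 estimate of the spread. They may also set the same single-cell-derived lines against each other, since the paper describes clones that received the vectors after editing. They may thus not be independent. In both, 105 members (59.3%) were called in the same direction and 0 in opposite directions, beside 49% and 0.263% of all genes.

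**Figure D1:**
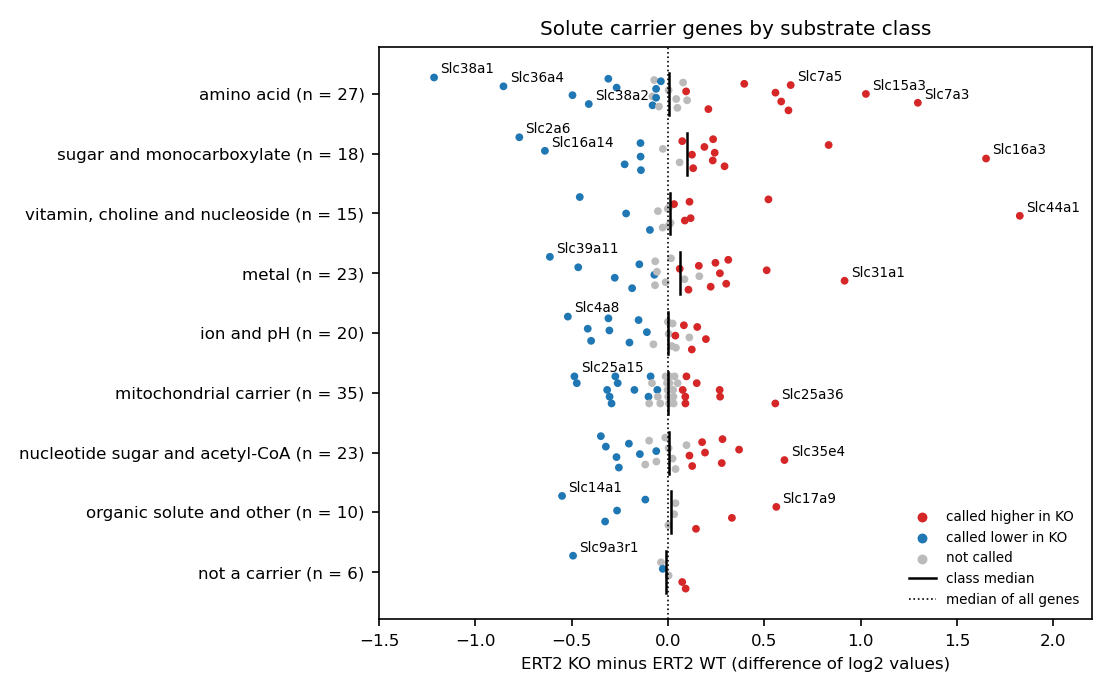
Difference between ERT2 KO and ERT2 WT libraries (means of 3, log2 scale, x axis) for each of 177 members by substrate class, red or blue where limma called it. Slc44a1, Slc16a3 and Slc7a3 lie farthest to the right and Slc38a1 farthest to the left, while class medians (black bars) stay near the median of all genes (dotted).

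Amino acid families held 27 members, of which 9 were higher and 10 lower in ERT2 KO than in ERT2 WT libraries. This comparison called 29.8% of all genes higher and 29.3% lower, and no class count here or below was tested against these shares. The higher ones include carriers of large neutral, small neutral and cationic amino acids and of glycine, and the lower ones include Slc38a1 and Slc38a2, sodium-coupled glutamine transporters. The light chain Slc7a5, which imports leucine and other large neutral amino acids, read 13.20, 13.22 and 13.22 in ERT2 WT, 13.07, 13.09 and 13.05 in Cre-ERT2 WT, 13.83, 13.86 and 13.85 in ERT2 KO, and 13.61, 13.62 and 13.61 in Cre-ERT2 KO libraries. The 4 groups were fully separate, with both KO groups on top and the ERT2 group above the Cre-ERT2 group on each background. Its KO minus WT difference in ERT2 libraries was 0.64 (SE 0.018, limma adjusted p = 9.09e-12), a 1.55-fold ratio on the unlogged scale. Its partner Slc3a2 read 11.68, 11.58 and 11.70 in ERT2 WT, 11.62, 11.53 and 11.60 in Cre-ERT2 WT, 12.20, 12.21 and 12.23 in ERT2 KO, and 12.00, 12.06 and 12.10 in Cre-ERT2 KO libraries. All 6 KO libraries lay above all 6 WT libraries, and the difference in ERT2 libraries was 0.56 (SE 0.035, limma adjusted p = 3.06e-08).

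Both measured exchangers of family 1 were higher in ERT2 KO libraries as well. Slc1a5 (ASCT2), a glutamine and neutral amino acid exchanger, read 12.19, 12.16 and 12.18 in ERT2 WT, 12.28, 12.30 and 12.23 in Cre-ERT2 WT, 12.54, 12.62 and 12.54 in ERT2 KO, and 12.27, 12.31 and 12.38 in Cre-ERT2 KO libraries. ERT2 KO libraries stood above the other 9, whereas Cre-ERT2 WT and Cre-ERT2 KO libraries overlapped, and the difference was 0.40 (SE 0.031, limma adjusted p = 2.35e-07) in ERT2 libraries but 0.05 (SE 0.031, limma adjusted p = 0.166) in Cre-ERT2 libraries. Slc1a4 (ASCT1), which carries serine and alanine, read 9.55, 9.59 and 9.66 in ERT2 WT, 9.66, 9.63 and 9.68 in Cre-ERT2 WT, 10.20, 10.18 and 10.18 in ERT2 KO, and 10.06, 10.09 and 10.12 in Cre-ERT2 KO libraries. It was higher in every KO than in every WT library, by 0.59 (SE 0.03, limma adjusted p = 3.21e-09) in ERT2 libraries. The cationic amino acid transporter Slc7a3 read 7.26, 7.22 and 7.22 in ERT2 WT, 7.18, 7.15 and 7.12 in Cre-ERT2 WT, 8.49, 8.56 and 8.53 in ERT2 KO, and 8.46, 8.44 and 8.40 in Cre-ERT2 KO libraries. Its groups lay over 1 unit apart, with a difference of 1.30 (SE 0.03, limma adjusted p = 1.52e-12) in ERT2 and 1.29 (SE 0.03, limma adjusted p = 1.45e-12) in Cre-ERT2 libraries. The glycine transporter Slc6a9 exceeded its WT level by 0.62 (SE 0.03, limma adjusted p = 2.17e-09) in ERT2 libraries, although 27.8% of its exonic bases overlap Ccdc24 on the opposite strand and the strand setting of the counting is not given in the sources used here. Slc7a1, the other cationic transporter of the core list, differed by 0.09 (SE 0.033, limma adjusted p = 0.0287), a call lost in 2 of 12 leave-outs of 1 library (ERT2 WT replicate 3 or ERT2 KO replicate 1, differences 0.056 to 0.11 and adjusted p 0.0214 to 0.128 over all 12) and with centering (limma adjusted p = 0.141).

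**Figure D2:**
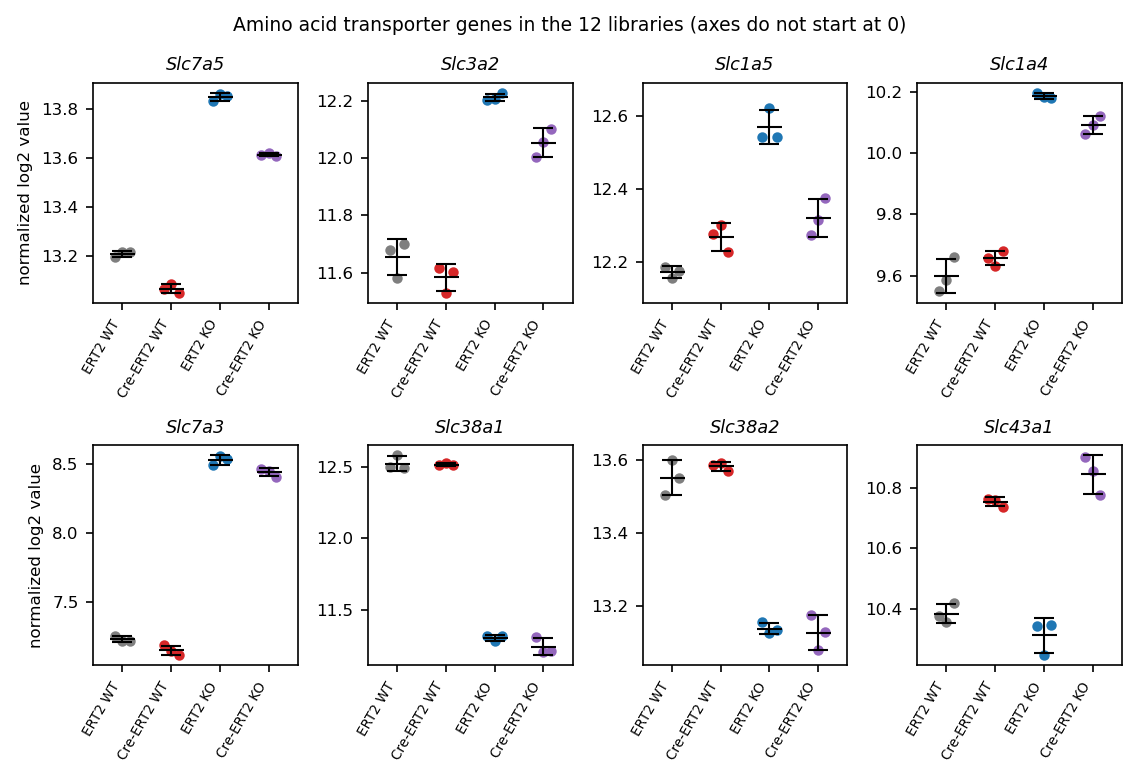
Normalized log2 values of 8 amino acid transporter genes in the 12 libraries (3 points a group, bar and whiskers: mean and SD, y axes not from 0). Slc7a5, Slc3a2, Slc1a4 and Slc7a3 are higher and Slc38a1 and Slc38a2 lower in all KO libraries, while Slc43a1 is higher in both Cre-ERT2 groups.

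Family 38 carries glutamine and other neutral amino acids with sodium. Of its 6 members, 3 were lower and 3 not called in ERT2 KO libraries, where 29.3% of all genes were lower. Slc38a1 (SNAT1) read 12.49, 12.58 and 12.49 in ERT2 WT, 12.51, 12.52 and 12.51 in Cre-ERT2 WT, 11.32, 11.28 and 11.32 in ERT2 KO, and 11.31, 11.21 and 11.21 in Cre-ERT2 KO libraries. It had the largest fall of any member in ERT2 libraries, -1.21 (SE 0.032, limma adjusted p = 5.23e-12), a 0.431-fold ratio, and β-catenin stabilization changed it by -0.01 in WT and -0.06 in KO cells, neither called. Slc38a2 (SNAT2) read 13.50, 13.60 and 13.55 in ERT2 WT, 13.59, 13.59 and 13.57 in Cre-ERT2 WT, 13.16, 13.13 and 13.13 in ERT2 KO, and 13.18, 13.08 and 13.13 in Cre-ERT2 KO libraries. Its difference was smaller, -0.41 (SE 0.028, limma adjusted p = 5.5e-08), but no KO library reached a WT library. Slc43a2 (LAT4), a facilitative carrier of branched-chain amino acids, differed by -0.50 (SE 0.047, limma adjusted p = 1.35e-06), and its relative Slc43a3, which is known for purine nucleobases rather than amino acids, by -0.27 (SE 0.027, limma adjusted p = 2.84e-06). Slc36a4 differed by -0.85, with all 3 ERT2 KO libraries within 0.02 of its lowest value in the table, so its size is measured against libraries at that lowest value.

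The endolysosomal peptide and histidine transporters Slc15a3 and Slc15a4 split. Slc15a3 read 7.71, 7.73 and 7.76 in ERT2 WT, 7.91, 7.93 and 7.97 in Cre-ERT2 WT, 8.73, 8.79 and 8.77 in ERT2 KO, and 9.22, 9.24 and 9.25 in Cre-ERT2 KO libraries. Each of the 4 groups was separate, and the KO minus WT difference was 1.03 (SE 0.028, limma adjusted p = 7.28e-12) in ERT2 and 1.30 (SE 0.028, limma adjusted p = 6.74e-13) in Cre-ERT2 libraries. It shares 28.1% of its exonic bases with Tmem132a on the opposite strand, a gene not among the 12151 analysed. Slc15a4 was lower, with a difference of -0.31 (SE 0.04, limma adjusted p = 2.36e-05). The cystine exchanger Slc7a11 had a mean of 3.83 ± 0.02 in ERT2 WT libraries, near the bottom of the table, and differed by -0.06 (SE 0.014, limma adjusted p = 0.00197). The remaining core members of this class lay within 0.1 of the WT mean in ERT2 libraries: Slc6a6 (taurine) at 0.05, Slc7a6 at -0.05, Slc36a1 at -0.08, Slc38a9 (the lysosomal arginine sensor) at 0.00 and Slc43a1 at -0.07, none called.

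Genes of the amino acid response, which Atf4 switches on when amino acids run short and which is known to include several of these transporters, were read as a list beside them. All 11 of 11 were higher in ERT2 KO than in ERT2 WT libraries (median 0.43, against 0.0016 over all genes), led by Trib3 at 0.93 (adjusted p = 3.18e-10 by limma) and Psph at 0.60 (adjusted p = 2.25e-09 by limma). In Cre-ERT2 libraries 8 of the 11 were higher, and Asns, Ddit3 and Phgdh were not called. Over all genes, 29.8% were higher in ERT2 and 30.4% in Cre-ERT2 libraries. With β-catenin stabilization all 11 were lower in KO cells (median -0.19) and 2 of them, Shmt2 and Mthfd2, in WT cells. Over all genes, 5.33% were lower in KO and 5.95% in WT cells. The KO minus WT comparison in ERT2 libraries and the β-catenin comparison in KO cells share the ERT2 KO libraries, so their directions are not independent. The test of the difference between backgrounds was passed by 4 of the 11: Asns at -0.26, Ddit3 at -0.17, Psph at -0.17 and Mthfd2 at -0.16. Over all genes, 1.82% passed it with a lower effect in KO cells.

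Of 18 sugar and monocarboxylate transporters, 10 were higher and 6 lower in ERT2 KO libraries, beside 29.8% and 29.3% of all genes. Slc16a3 (MCT4), the low-affinity carrier that exports lactate from glycolytic cells, read 9.46, 9.45 and 9.46 in ERT2 WT, 9.26, 9.22 and 9.17 in Cre-ERT2 WT, 11.05, 11.09 and 11.18 in ERT2 KO, and 11.10, 11.20 and 11.16 in Cre-ERT2 KO libraries. KO libraries lay at least 1 unit above WT libraries, by 1.65 (SE 0.036, limma adjusted p = 1.1e-12) in ERT2 (3.14-fold) and 1.94 (SE 0.036, limma adjusted p = 2.32e-13) in Cre-ERT2 libraries (3.83-fold). Its chaperone Bsg was higher as well, by 0.63 (SE 0.023, limma adjusted p = 1.22e-10) and 0.63 (SE 0.023, limma adjusted p = 1.02e-10). Slc16a1 (MCT1), the high-affinity carrier of the same substrate, read 13.62, 13.62 and 13.70 in ERT2 WT, 13.94, 13.90 and 13.93 in Cre-ERT2 WT, 13.44, 13.39 and 13.43 in ERT2 KO, and 13.91, 13.91 and 13.96 in Cre-ERT2 KO libraries. In ERT2 libraries it was lower in KO, with a difference of -0.23 (SE 0.025, limma adjusted p = 6.75e-06), while in Cre-ERT2 libraries the difference was -0.00 (limma adjusted p = 0.987) and turned to 0.089 under quantile normalization (limma adjusted p = 0.0117), which made it a call.

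The other SLC16 members spread on both sides of 0. Slc16a14, an orphan of the family, read 8.23, 8.12 and 8.12 in ERT2 WT, 7.98, 7.99 and 8.11 in Cre-ERT2 WT, 7.52, 7.49 and 7.53 in ERT2 KO, and 7.41, 7.44 and 7.46 in Cre-ERT2 KO libraries. It was lower, with a difference of -0.64 (SE 0.04, limma adjusted p = 2.62e-08) in ERT2 libraries, the widest opposite pair in a family together with Slc16a3. Slc16a13 exceeded WT by 0.24 (SE 0.042, limma adjusted p = 0.000301) and Slc16a6 was lower, with a difference of -0.14 (SE 0.041, limma adjusted p = 0.0102). Of the exonic bases of Slc16a6, 21.5% overlap Amz2 on the opposite strand, whose mean was 9.43 in ERT2 WT and 9.40 in ERT2 KO libraries. Slc16a5, at 4.13 ± 0.03 in ERT2 WT libraries, differed by -0.03 and was not called. Among sugar carriers, Slc2a6 (GLUT6) read 7.23, 7.19 and 7.24 in ERT2 WT, 7.29, 7.24 and 7.22 in Cre-ERT2 WT, 6.46, 6.43 and 6.44 in ERT2 KO, and 6.49, 6.48 and 6.48 in Cre-ERT2 KO libraries. It was lower in all KO libraries, with a difference of -0.77 (SE 0.024, limma adjusted p = 3.03e-11). Slc5a3 (myo-inositol) was higher by 0.23 (SE 0.039, limma adjusted p = 0.000232), Slc2a8 (GLUT8) differed by 0.07, a call lost without ERT2 WT replicate 2 or ERT2 KO replicate 2 (adjusted p 0.0203 to 0.108 over the leave-outs) and with the sign turned by quantile normalization (-0.0083), and Slc5a6 (biotin and pantothenate) by 0.06, not called. Slc37a4, the glucose 6-phosphate transporter of the endoplasmic reticulum, read 6.20, 6.56 and 6.20 in ERT2 WT, 6.20, 6.81 and 6.20 in Cre-ERT2 WT, 7.12, 6.98 and 7.35 in ERT2 KO, and 6.71, 7.44 and 6.20 in Cre-ERT2 KO libraries. Replicates of 1 group were far apart, and 5 of 12 libraries sat within 0.02 of its lowest value. Its difference of 0.83 (SE 0.26, limma adjusted p = 0.014) was lost without ERT2 KO replicate 3 (adjusted p 0.00211 to 0.0539 over the leave-outs).

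**Figure D3:**
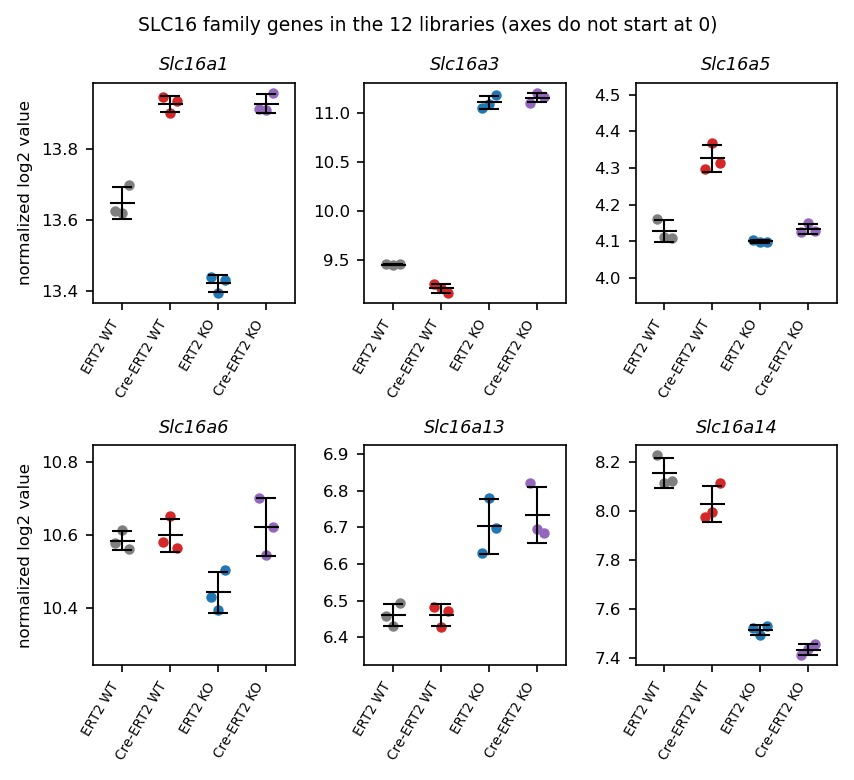
Normalized log2 values of the 6 SLC16 family genes in the 12 libraries (3 points a group, bar and whiskers: mean and SD, y axes not from 0). Slc16a3 and Slc16a14 separate KO from WT in opposite directions, and Slc16a1 separates Cre-ERT2 from ERT2 on both backgrounds.

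Vitamin, choline and nucleoside carriers numbered 15, with 6 higher and 3 lower in ERT2 KO libraries, beside 29.8% and 29.3% of all genes. Slc44a1, the choline transporter that feeds phosphatidylcholine synthesis, read 6.68, 6.68 and 6.67 in ERT2 WT, 6.82, 6.81 and 6.81 in Cre-ERT2 WT, 8.48, 8.48 and 8.54 in ERT2 KO, and 8.66, 8.67 and 8.69 in Cre-ERT2 KO libraries. KO and WT libraries did not overlap, and the difference of 1.83 (SE 0.025, limma adjusted p = 1.74e-14) (3.54-fold) was the largest of all members in ERT2 libraries, though its WT level lay below the median gene. The reduced folate carrier Slc19a1 read 10.07, 9.96 and 10.06 in ERT2 WT, 9.83, 9.79 and 9.88 in Cre-ERT2 WT, 10.55, 10.56 and 10.54 in ERT2 KO, and 10.42, 10.46 and 10.35 in Cre-ERT2 KO libraries. It was higher in KO by 0.52 (SE 0.036, limma adjusted p = 6.27e-08) and again by 0.58 (SE 0.036, limma adjusted p = 2.25e-08) in Cre-ERT2 libraries. The vitamin C transporter Slc23a2 was lower, with a difference of -0.46 (SE 0.034, limma adjusted p = 1.45e-07) and the concentrative nucleoside transporter Slc28a2 at -0.22 (SE 0.041, limma adjusted p = 0.000545). Slc29a1, which equilibrates nucleosides across the plasma membrane, exceeded WT by 0.11 (SE 0.026, limma adjusted p = 0.00234), and its lysosomal relative Slc29a3 differed by -0.03, not called. The other core members stayed within 0.1: Slc19a2 (thiamine) at 0.09, Slc44a2 at 0.00, Slc46a1 (the proton-coupled folate transporter) at 0.03, Slc46a3 at -0.05 and Slc52a2 (riboflavin) at 0.01. Of these, Slc19a2 and Slc46a1 were called, each lost in at least 3 leave-outs, and the sign of Slc46a1 turned when libraries were centered (-0.0013). The Slc19a2 call was lost with centering (limma adjusted p = 0.14) and quantile normalization (0.145), and Slc52a2 turned to -0.0753 with quantile normalization (limma adjusted p = 0.0487).

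Of 23 metal transporters, 10 were higher and 6 lower in ERT2 KO libraries, beside 29.8% and 29.3% of all genes. The copper importer Slc31a1 (CTR1) read 10.64, 10.65 and 10.69 in ERT2 WT, 10.63, 10.65 and 10.65 in Cre-ERT2 WT, 11.54, 11.55 and 11.63 in ERT2 KO, and 11.55, 11.52 and 11.58 in Cre-ERT2 KO libraries. KO exceeded WT by 0.92 (SE 0.028, limma adjusted p = 1.89e-11) in ERT2 and 0.91 (SE 0.028, limma adjusted p = 2.15e-11) in Cre-ERT2 libraries, with no overlap, and β-catenin stabilization changed it by -0.01 and -0.03, neither called. Zinc importers of family 39 went both ways, with 3 of 10 higher and 5 lower. Slc39a10, an importer with a known role in early B cells, read 10.16, 10.24 and 10.28 in ERT2 WT, 10.34, 10.30 and 10.37 in Cre-ERT2 WT, 10.73, 10.74 and 10.74 in ERT2 KO, and 11.06, 10.98 and 11.01 in Cre-ERT2 KO libraries. It was higher by 0.51 (SE 0.033, limma adjusted p = 3.16e-08). Slc39a14, which also carries iron and manganese, read 9.90, 9.99 and 9.98 in ERT2 WT, 9.62, 9.64 and 9.65 in Cre-ERT2 WT, 9.45, 9.56 and 9.47 in ERT2 KO, and 9.50, 9.48 and 9.51 in Cre-ERT2 KO libraries. ERT2 WT libraries stood above the other 9, and the difference was -0.47 (SE 0.035, limma adjusted p = 1.6e-07) in ERT2 but -0.14 (SE 0.035, limma adjusted p = 0.00482) in Cre-ERT2 libraries. Slc39a11 was lower, with a difference of -0.61 (SE 0.032, limma adjusted p = 3.71e-09), Slc39a6 at -0.28 (SE 0.021, limma adjusted p = 1.87e-07) and Slc39a1 higher by 0.16 (SE 0.027, limma adjusted p = 0.000258). The iron exporter Slc40a1 was higher by 0.22 (SE 0.045, limma adjusted p = 0.000924), whereas the iron importer Slc11a2 (DMT1) differed by 0.16 and the zinc exporter Slc30a1 by -0.07, the former not called and the latter lost in 7 of 12 leave-outs. The magnesium carrier Slc41a1 differed by 0.11, lost in 3 of them, with centering (limma adjusted p = 0.0868) and with quantile normalization (limma adjusted p = 0.101).

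Genes that respond to metals were listed beside this class, against 29.8% of all genes higher and 29.3% lower in ERT2 KO libraries. Of 6, 3 were higher in ERT2 KO libraries, the metallothioneins Mt2 (1.89 (SE 0.05, limma adjusted p = 5.23e-12)) and Mt1 (1.37 (SE 0.034, limma adjusted p = 3.18e-12)) and the ferritin chain Fth1 (0.08), and 3 lower, the transferrin receptor Tfrc (-0.92 (SE 0.11, limma adjusted p = 1.19e-05)), Ftl1 (-0.37) and the zinc sensor Mtf1 (-0.18).

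The 35 mitochondrial carriers formed the largest class, with 8 higher and 11 lower in ERT2 KO libraries, beside 29.8% and 29.3% of all genes. Their median difference was -0.0024, beside 0.0016 over all genes. Their differences lay between -0.49 and 0.56. The citrate carrier Slc25a1, which supplies cytosolic acetyl-CoA, exceeded WT by 0.27 (SE 0.021, limma adjusted p = 2.05e-07), and the ornithine carrier Slc25a15 was lower, with a difference of -0.49 (SE 0.021, limma adjusted p = 7.93e-10). The pyrimidine nucleotide carrier Slc25a36 was higher by 0.56 (SE 0.067, limma adjusted p = 1.27e-05). The dicarboxylate carrier Slc25a10 was lower, with a difference of -0.30 (SE 0.042, limma adjusted p = 4.57e-05), the carnitine carrier Slc25a20 at -0.27 (SE 0.034, limma adjusted p = 1.45e-05) and the NAD carrier Slc25a51 at -0.29 (SE 0.049, limma adjusted p = 0.000226). The carriers of ADP and ATP moved little, Slc25a4 by 0.09 and Slc25a5 by 0.01, and the phosphate carrier Slc25a3 by 0.15. The iron carriers Slc25a37 and Slc25a28 were at -0.09 and -0.10, the glutathione carrier Slc25a39 at 0.09 and the folate carrier Slc25a32 at 0.00. Of these, Slc25a3, Slc25a4, Slc25a37 and Slc25a39 were called, the last 2 of them lost in at least 7 of 12 leave-outs, and Slc25a39 with centering as well (limma adjusted p = 0.185).

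Ion and pH transporters, 20 in number, were 5 higher and 8 lower in ERT2 KO libraries, beside 29.8% and 29.3% of all genes. The largest rise among the 20 was 0.20. The sodium bicarbonate transporter Slc4a8 was lower, with a difference of -0.52 (SE 0.05, limma adjusted p = 1.61e-06), the sulfate transporter Slc26a2 at -0.42 (SE 0.031, limma adjusted p = 1.24e-07) and the anion exchanger Slc4a2 at -0.40 (SE 0.062, limma adjusted p = 0.000122). The cation chloride cotransporters Slc12a7 and Slc12a2 were lower too, at -0.30 and -0.11. The mitochondrial sodium calcium exchanger Slc8b1 exceeded WT by 0.15 (SE 0.031, limma adjusted p = 0.00113) and the phosphate transporter Slc20a2 by 0.20 (SE 0.038, limma adjusted p = 0.000726), while Slc20a1 (0.00) was not called. With quantile normalization the Slc8b1 call was lost (0.0676, limma adjusted p = 0.074). Carriers of nucleotide sugars and acetyl-CoA, 23 in all, were 8 higher and 7 lower, beside the same shares of all genes. Slc35a1, which brings CMP-sialic acid into the Golgi, was lower, with a difference of -0.27 (SE 0.036, limma adjusted p = 3.24e-05), Slc35b1 of the endoplasmic reticulum at -0.32 (SE 0.042, limma adjusted p = 2.49e-05), and Slc35d1 higher by 0.18 (SE 0.049, limma adjusted p = 0.00771). The Slc35d1 call was lost with quantile normalization (0.111, limma adjusted p = 0.064). The orphan Slc35e4 was higher by 0.60 (SE 0.033, limma adjusted p = 7.18e-09). Among 10 carriers of organic solutes, 3 were higher, with Slc17a9, the vesicular nucleotide transporter, at 0.56 (SE 0.036, limma adjusted p = 3.07e-08), and 4 lower, with the urea transporter Slc14a1 at -0.55 (SE 0.041, limma adjusted p = 1.3e-07). The fatty acid transporter Slc27a4 was at 0.04, not called. Among the 6 genes that are not carriers, the scaffold gene Slc9a3r1 was lower, with a difference of -0.49 (SE 0.025, limma adjusted p = 2.73e-09).

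The comparison of Cre-ERT2 with ERT2 libraries asks how these genes differed with β-catenin stabilization on each background. Active Cre is part of this comparison, since no group had Cre-ERT2 without the Ctnnb1Ex3fl allele. In WT cells 26 members (14.7%) were called, 10 higher and 16 lower, beside 11.9% of all genes (5.93% higher and 5.95% lower). In KO cells 33 (18.6%) were called, 14 higher and 19 lower, beside 12.6% of all genes (7.27% higher and 5.33% lower). The effects were small: at least 0.25 in 3 members in WT cells (1.98% of all genes) and 8 in KO cells (2.26% of all genes). They were at least 0.5 in 2 members, both in KO cells, and the share of all genes at that size is not given here. Member medians were -0.0058 in WT and -0.0076 in KO cells, against 0 and -0.0004 over all genes. Groups did not overlap for 47 members in WT cells (31.1% of all genes) and 63 in KO cells (28.3% of all genes). Both backgrounds called 13 members in the same direction and 0 in opposite directions, that is 13 of the 26 and 13 of the 33. Over all genes, 4.68% were called in the same direction on both backgrounds and 0.214% in opposite directions, beside 7.34% of members in the same direction.

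**Figure D4:**
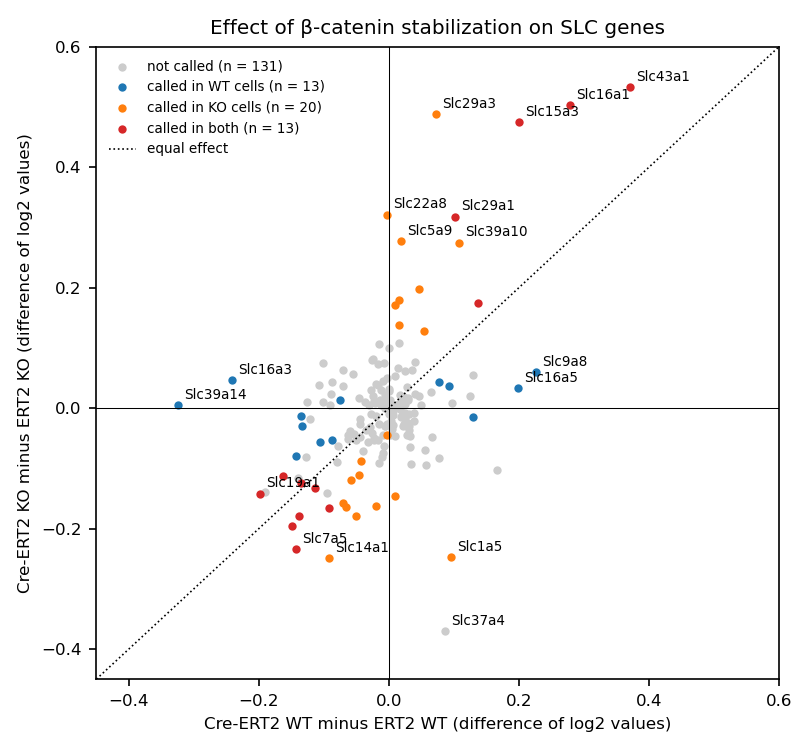
Effect of β-catenin stabilization (Cre-ERT2 minus ERT2, means of 3, log2 scale) in WT cells (x axis) and KO cells (y axis) for 177 members, colored by call. Slc43a1, Slc16a1 and Slc15a3 rose on both backgrounds and lie above the line of equal effect, while Slc39a14 and Slc16a3 fell in WT cells and lie near 0 in KO cells.

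The 5 members higher on both backgrounds were Slc43a1, Slc16a1, Slc15a3, Slc44a1 and Slc29a1. Slc43a1 (LAT3), a facilitative carrier of leucine and other large neutral amino acids, read 10.38, 10.36 and 10.42 in ERT2 WT, 10.77, 10.76 and 10.74 in Cre-ERT2 WT, 10.34, 10.25 and 10.35 in ERT2 KO, and 10.90, 10.86 and 10.78 in Cre-ERT2 KO libraries. Cre-ERT2 libraries lay above ERT2 libraries without overlap on either background, by 0.37 (SE 0.036, limma adjusted p = 2.45e-05) in WT (1.29-fold) and 0.53 (SE 0.036, limma adjusted p = 6.02e-07) in KO cells (1.45-fold), the largest rises of the members whose mean lay above the median gene. Slc16a1, whose 12 values are given above, rose by 0.28 (SE 0.025, limma adjusted p = 1.57e-05) in WT and 0.50 (SE 0.025, limma adjusted p = 4.61e-08) in KO cells. Slc15a3 rose by 0.20 (SE 0.028, limma adjusted p = 0.000468) and 0.48 (SE 0.028, limma adjusted p = 1.73e-07), and Slc44a1 by 0.14 (SE 0.025, limma adjusted p = 0.00277) and 0.18 (SE 0.025, limma adjusted p = 0.000442). Slc29a1 read 12.27, 12.26 and 12.29 in ERT2 WT, 12.40, 12.36 and 12.37 in Cre-ERT2 WT, 12.39, 12.38 and 12.37 in ERT2 KO, and 12.74, 12.73 and 12.64 in Cre-ERT2 KO libraries. It rose by 0.10 (SE 0.026, limma adjusted p = 0.0211) in WT cells, lost in 4 of 12 leave-outs (adjusted p 0.00316 to 0.0826, highest without Cre-ERT2 WT replicate 1), and by 0.32 (SE 0.026, limma adjusted p = 3.48e-06) in KO cells.

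The 8 members lower on both backgrounds were Slc7a5, Slc7a1, Slc19a1, Slc25a1, Slc25a33, Slc35c1, Slc17a9 and Slc39a6, which carry large neutral and cationic amino acids, folate, citrate, pyrimidine nucleotides, GDP-fucose, nucleotides and zinc. Slc7a5 changed by -0.14 (SE 0.018, limma adjusted p = 0.000202) in WT and -0.23 (SE 0.018, limma adjusted p = 1.95e-06) in KO cells, with no overlap on either background. Slc25a1 changed by -0.14 (SE 0.021, limma adjusted p = 0.000965) and -0.12 (SE 0.021, limma adjusted p = 0.00161). Slc25a33 changed by -0.15 (SE 0.031, limma adjusted p = 0.00687) and -0.19 (SE 0.031, limma adjusted p = 0.00104), where 14.9% of its exonic bases overlap Gm13068. Slc19a1 changed by -0.20 (SE 0.036, limma adjusted p = 0.00301) in WT cells and by -0.14 (SE 0.036, limma adjusted p = 0.0212) in KO cells, the latter lost in 4 of 12 leave-outs (adjusted p 0.0121 to 0.0753, highest without Cre-ERT2 KO replicate 3). The Slc7a1 fall, -0.16 (SE 0.033, limma adjusted p = 0.00646) in WT cells, was -0.11 (SE 0.033, limma adjusted p = 0.0443) in KO cells and lost in 8 of 12 leave-outs there (adjusted p 0.0166 to 0.15, highest without ERT2 KO replicate 1). Slc39a6 changed by -0.09 and -0.17, Slc17a9 by -0.14 and -0.18, and Slc35c1 by -0.11 and -0.13, and the WT calls of these 3 were each lost in 2 to 4 leave-outs.

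Other members were called on 1 background. In WT cells, the zinc importer Slc39a14 had the largest fall, -0.32 (SE 0.035, limma adjusted p = 6.7e-05), followed by Slc16a3 at -0.24 (SE 0.036, limma adjusted p = 0.00088), and the sodium proton exchanger Slc9a8 rose by 0.23 (SE 0.052, limma adjusted p = 0.0125), lost without Cre-ERT2 WT replicate 3 (adjusted p 0.00438 to 0.0506 over the leave-outs). In KO cells, Slc29a3 rose by 0.49 (SE 0.037, limma adjusted p = 2.15e-06), Slc39a10 by 0.28 (SE 0.033, limma adjusted p = 0.000113) and Slc16a6 by 0.18 (SE 0.041, limma adjusted p = 0.0126), the last lost without ERT2 KO replicate 2 (adjusted p 0.00482 to 0.0593). Slc1a5 changed by -0.25 (SE 0.031, limma adjusted p = 0.000178), Slc14a1 by -0.25 (SE 0.041, limma adjusted p = 0.00142), Slc6a9 by -0.18 (SE 0.03, limma adjusted p = 0.00184), Slc3a2 by -0.16 (SE 0.035, limma adjusted p = 0.0116) and Slc25a32 by -0.16 (SE 0.036, limma adjusted p = 0.0103). Both partners of the LAT1 complex, Slc7a5 and Slc3a2, thus passed the test in KO cells, while in WT cells the Slc3a2 difference was -0.07 (SE 0.035, limma adjusted p = 0.244). A call on 1 background and not on the other does not show that the effects differ.

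That difference was tested directly, as the effect in KO cells minus the effect in WT cells. It passed for 12 members (6.78%, beside 4.53% of all genes), 9 with a higher and 3 with a lower effect in KO cells (2.71% and 1.82% of all genes), and 7 differed by at least 0.25 (1.65% of all genes). For the lysosomal nucleoside carrier Slc29a3, which read 8.85, 8.90 and 8.77 in ERT2 WT, 8.95, 8.91 and 8.88 in Cre-ERT2 WT, 8.87, 8.78 and 8.79 in ERT2 KO, and 9.27, 9.31 and 9.32 in Cre-ERT2 KO libraries, the difference of effects was 0.42 (SE 0.053, limma adjusted p = 0.000598). Only the Cre-ERT2 KO group stood apart from the other 3 for this gene. The Slc39a14 difference was 0.33 (SE 0.05, limma adjusted p = 0.00226), since its ERT2 WT group alone stood high. Slc16a3 differed by 0.29 (SE 0.051, limma adjusted p = 0.00671), Slc15a3 by 0.28 (SE 0.039, limma adjusted p = 0.00144), Slc16a1 by 0.23 (SE 0.036, limma adjusted p = 0.00325) and Slc29a1 by 0.22 (SE 0.036, limma adjusted p = 0.00457). Slc1a5 had the largest difference in the other direction, -0.34 (SE 0.044, limma adjusted p = 0.000642), with an effect of 0.10 in WT cells, not called (limma adjusted p = 0.0705), and -0.25 in KO cells, called. For Slc7a5 and Slc43a1, which changed on both backgrounds, the difference was -0.09 (SE 0.025, limma adjusted p = 0.0633) and 0.16 (SE 0.051, limma adjusted p = 0.106), and did not pass.

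**Figure D5:**
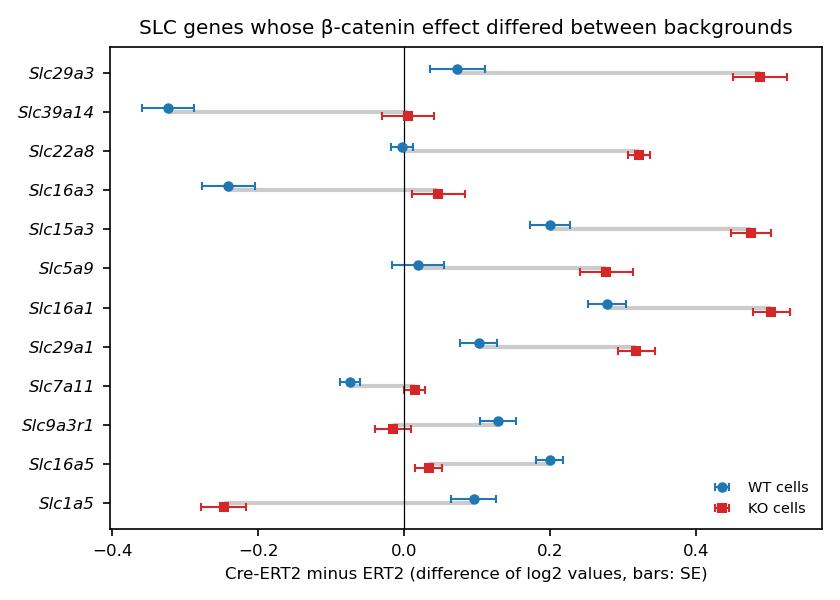
β-Catenin effect (Cre-ERT2 minus ERT2, log2 scale, with SE) in WT cells (blue circles) and KO cells (red squares) for the 12 members in which the effects differed by limma. Slc29a3 and Slc22a8 changed mainly in KO cells, Slc39a14, Slc16a3 and Slc16a5 in WT cells, and Slc1a5 has values on opposite sides of 0, of which the KO effect was called and the WT effect was not.

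Low levels limit 3 of the 12. The organic anion transporter Slc22a8 read 5.02, 5.01 and 5.01 in ERT2 WT, 5.01, 5.01 and 5.01 in Cre-ERT2 WT, 5.16, 5.14 and 5.18 in ERT2 KO, and 5.49, 5.46 and 5.49 in Cre-ERT2 KO libraries. All 6 WT libraries lay within 0.02 of its lowest value, and the difference of 0.33 (SE 0.022, limma adjusted p = 2.49e-06) came from the KO libraries. Slc16a5 read 4.16, 4.11 and 4.11 in ERT2 WT, 4.30, 4.37 and 4.31 in Cre-ERT2 WT, 4.10, 4.10 and 4.10 in ERT2 KO, and 4.12, 4.15 and 4.13 in Cre-ERT2 KO libraries, with a difference of -0.17 (SE 0.026, limma adjusted p = 0.00327). Slc7a11 read 3.82, 3.85 and 3.82 in ERT2 WT, 3.75, 3.76 and 3.77 in Cre-ERT2 WT, 3.77, 3.77 and 3.76 in ERT2 KO, and 3.77, 3.76 and 3.81 in Cre-ERT2 KO libraries. Its difference of 0.09 (SE 0.02, limma adjusted p = 0.0251) was lost in 4 of 12 leave-outs (adjusted p 0.0198 to 0.0663, highest without Cre-ERT2 WT replicate 1) and with centering (limma adjusted p = 0.0651). The mannose transporter Slc5a9 differed by 0.26 (SE 0.051, limma adjusted p = 0.0127) and rose by 0.28 (SE 0.036, limma adjusted p = 0.000241) in KO cells. The scaffold gene Slc9a3r1 differed by -0.14 (SE 0.035, limma adjusted p = 0.0368), lost in 9 of 12 leave-outs (adjusted p 0.021 to 0.09, highest without ERT2 KO replicate 3). Of the 177 members, 42 were called in none of the 5 comparisons. The matching share of all genes is not given here, so this count shows nothing particular to the members.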

How the data were processed

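PolyA RNA was sequenced in 12 libraries (280 ng total RNA, 10 PCR cycles, strand-marking kit). The authors quantified transcripts with Salmon 1.4.0 and STAR 2.7.6 on mm10/GRCm38 and used DESeq2 1.30.1, according to the methods and the submitters' processing notes. The deposited table holds normalized log2 values for 12151 genes, 3 libraries in each of 4 groups, with no counts, fold changes or p-values. How the log2 values were transformed is not given in the sources used here, and the depth is unknown, so no counting interval was computed. One gene without a symbol stayed in the fits.

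Group means were fitted over all 12 libraries with limma 3.58.1 (R 4.3.3, trended prior), and p-values were adjusted over all genes (Benjamini-Hochberg, called under 0.05). An exact permutation test of 3 against 3 libraries cannot go below p = 0.1, so no call was made from it. The script was tested on simulated data. Named members were 67 core genes chosen by role, of which 62 were in the table (Slc16a10, Slc11a1, Slc4a7, Slc24a3 and Slc27a1 were not), the 5 largest rises and falls above and the 3 largest below the median gene in each comparison, the widest opposite pair in a family, and members whose effects differed between backgrounds; other members named were chosen after their values were seen. A few members of these lists are not reported here. Members and lists were chosen with earlier results of these data known. Alternatives were a pseudocount of 1 on unlogged values, genes with a mean above 7 only, median centering, quantile normalization, other priors, only the 6 libraries compared, stricter thresholds, a replicate block and leaving out each library. Dropping the 6 members that are not carriers was added after seeing the data. Promoters came from RefSeq (GRCm38.p6). Exon overlaps came from GENCODE vM21, which is not the release the authors used (vM24).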

Additional observations from a re-analysis of the deposited data

Results flagged for a closer look

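In 12 members the effect of β-catenin stabilization differed between KO and WT cells by the test of the difference itself (limma, adjusted over all genes, effect in KO minus effect in WT on the log2 scale). The difference was 0.42 for Slc29a3, 0.33 for Slc39a14, 0.325 for Slc22a8, 0.29 for Slc16a3, 0.28 for Slc15a3, 0.26 for Slc5a9, 0.23 for Slc16a1 (0.225 before rounding), 0.22 for Slc29a1 and 0.0886 for Slc7a11. It was -0.34 for Slc1a5, -0.17 for Slc16a5 and -0.14 for Slc9a3r1. In 10 of the 12 the call was kept whichever library was left out, the exceptions being Slc7a11 and Slc9a3r1. With 3 libraries a group, single libraries were not tested for standing apart.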

How the results depend on the processing

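Counts of called members changed by more than 1.5 times only with stricter thresholds. At an adjusted p under 0.01 the β-catenin effect called 16 members in WT and 20 in KO cells, and with a change of at least 0.25 as well the counts were 3 and 8, with 58 and 54 for KO against WT in ERT2 and Cre-ERT2 libraries and 7 for the difference of effects. Centering each library on its median moved the median KO minus WT change over members to -0.0279 in ERT2 and -0.0261 in Cre-ERT2 libraries, and quantile normalization to -0.0174 in the latter. Leaving out 1 library at a time gave 19 to 28 calls for β-catenin in WT cells, 26 to 34 in KO cells, 107 to 120 and 102 to 117 for KO against WT in ERT2 and Cre-ERT2 libraries, and 10 to 14 for the difference. The member medians then ran from -0.0058 to -0.0032, -0.0106 to -0.0008, -0.0009 to 0.0126, 0.0029 to 0.0089 and -0.0034 to 0.0048. All 12 leave-outs kept 16 of 26, 25 of 33, 98 of 118, 95 of 118 and 10 of 12 calls.

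In 5 of 8422 comparisons of named members with an alternative, the sign turned and the main or the alternative fit made a call. Sign changes without a call were not counted. Apart from these, 334 calls were lost and 59 gained, and the lost ones include calls dropped by the stricter thresholds themselves. With quantile normalization Slc2a8 came to -0.0083, Slc52a2 to -0.0753 in ERT2 and Slc16a1 to 0.0885 in Cre-ERT2 libraries. With centering Slc46a1 came to -0.0013 in ERT2 and -0.0097 in Cre-ERT2 libraries. The cause was not tested. Without the 6 genes that are not carriers, the counts were 25, 33, 114, 114 and 11. Whether replicate numbers pair the libraries was not settled by their correlations. Same-numbered libraries of different groups correlated in their deviations at -0.124 to 0.332, with 4 of 18 pairs above 0.1. Differently numbered ones reached -0.387 (Cre-ERT2 WT 2 with Cre-ERT2 KO 1) and 0.379 (Cre-ERT2 WT 2 with Cre-ERT2 KO 3). Of 12 libraries, 6 matched best with their own number. With the replicate block the counts were 25, 31, 113, 112 and 12. The unknown depth and transformation limit what can be said of weakly expressed members, and the single-cell origin of the lines limits the KO against WT differences. The lack of a Cre-ERT2 group without the Ctnnb1Ex3fl allele limits the β-catenin effects.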

Other observations

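Transport genes outside the SLC families also differed between KO and WT cells, as did 59% of all genes in ERT2 libraries (29.8% higher and 29.3% lower). The sodium pump maintains the sodium gradient that many SLC carriers use. In ERT2 KO libraries its β-subunit genes Atp1b1 and Atp1b3 were lower by limma at -0.87 (SE 0.031, adjusted p = 1.2e-10) and -0.83 against ERT2 WT libraries, and Atp1b2 was higher at 1.38. Atp1b3 rose with β-catenin stabilization in WT (0.13) and KO cells (0.15). Of 20 measured ATP-binding cassette (ABC) transporters, 10 were higher and 5 lower in ERT2 KO libraries, with Abcc1, an exporter of glutathione conjugates, at 1.96, the cholesterol exporter Abcg1 at 0.76, Abcc4 at -0.51 and the mitochondrial Abcb10 at -0.50. With β-catenin stabilization few of the 20 were called, 1 higher and 2 lower in WT cells, and 0 higher and 1 lower (Abcc1, at -0.13) in KO cells. Over all genes, 5.93% were higher and 5.95% lower in WT cells, and 7.27% and 5.33% in KO cells. Of 4 accessory genes, Bsg was higher in ERT2 KO libraries, Ostm1 (the partner of a lysosomal chloride transporter) and the pyruvate carrier subunit Mpc1 lower at -0.26 and -0.15, and Mpc2 not called at -0.01.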
